A study of Mus musculus with 9 samples.

Results

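The SLC25 family is the set of carrier proteins that move metabolites, nucleotides, cofactors and ions across the inner membrane of mitochondria. Each carrier is built from repeats of the same short fold and alternates between a state open to the cytosol and a state open to the matrix, so that many members exchange one substrate for another. Fat cells depend on several of them: the citrate carrier supplies acetyl units for fatty acid synthesis, the ADP/ATP translocators export ATP, and the uncoupling protein Ucp1, a member of the same family under another name, dissipates the proton gradient as heat in brown fat. The genes described here were those whose array annotation gave a single symbol of the form Slc25a followed by a number, without Slc25a20, the carnitine-acylcarnitine carrier. There were 43 such genes among 18193 genes on the array. They were covered by 91 probe sets, with 1 probe set each for 21 genes and several for 22. Each gene was read from its brightest probe set, by the mean of all 9 arrays, and every probe set is given for Slc25a30.

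RNA was measured in NIH-CAR cells, a single clone of NIH-3T3 mouse fibroblasts that stably expresses the coxsackie-adenovirus receptor and so takes up adenoviral vectors. In 1 group the cells received an adenovirus encoding HA-tagged, full-length PPARγ2, the nuclear receptor that directs fat cell differentiation, and then 1 µM rosiglitazone, its agonist. In another they received an adenovirus encoding HA-tagged PPARγ without the A/B-domain, the N-terminal activation region (PPARgCDE in the labels), and then 1 µM rosiglitazone. The reference cells received an adenovirus with an empty vector and then the vehicle DMSO. All groups were at passage 12, were exposed to virus for 2 h and had 3 arrays each. No group had the receptor without agonist or the agonist without receptor, so receptor and agonist cannot be told apart. The comparisons asked which carrier genes changed with each receptor, and whether removal of the A/B-domain altered that change. The design text speaks of separate experiments, and no label ties an array number to one of them, so the p-values rest on how far arrays of 1 clone differ. In such bulk RNA, fewer responding cells and less RNA per cell cannot be told apart.

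All values below are RMA values on the log2 scale, in which a difference of 1 is a doubling. Array medians ran from 6.68 to 6.90. The Pparg probe set read 10.70 to 12.22 in full-length receptor cells, 10.74 to 12.01 in deleted-receptor cells and 6.99 to 7.17 with empty vector. All 8 fibroblast markers had means of at least 10.59. Of 5 fat cell markers, 3 had a probe set of a single symbol. They averaged 5.54 (Adipoq), 6.72 (Ucp1) and 7.14 (Retn), the last above every array median. The summed level of these 3 was 19.5 to 19.9 with the full-length receptor, 19.0 to 19.3 with the deleted receptor and 18.5 to 19.9 with empty vector. The 3 arrays numbered 3 stood apart from the others: their 18S ribosomal RNA control probe sets averaged 7.59 to 8.67, against 10.51 to 12.44 on the other 6 arrays. The table held no detection calls, and 6 of the 43 carrier genes averaged below the lowest array median.

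Among the 43 members, 1 was called higher with the full-length receptor. Slc25a30, which encodes kidney mitochondrial carrier protein, a relative of the uncoupling proteins, read 12.19, 12.35 and 11.70 on the 3 full-length receptor arrays, 11.19, 11.32 and 10.88 on the deleted-receptor arrays, and 10.39, 10.69 and 10.44 on the empty-vector arrays. The 3 groups did not overlap, with the full-length receptor highest, the deleted receptor between and empty vector lowest. With the full-length receptor and agonist Slc25a30 was 1.57 above empty vector (SE 0.19, 95% interval 1.15 to 2.00, limma adjusted p = 0.00568). This is a fold of 2.98 with an interval from 2.22 to 3.99. Slc25a30 ranked 35 of 18193 genes by size of increase. It was the 1 member of 43 called in this comparison, against 0.654% of all genes, and the 1 of 43 called higher compares with 0.5% of all genes. No member was called lower, against 0.154%. At an unadjusted p under 0.05 there were 2 members, Slc25a30 and Slc25a1, against 6.19% of all genes. Without the 3 arrays numbered 3 the rise was 1.73 (adjusted p = 0.00433).

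With the deleted receptor Slc25a30 was 0.63 above empty vector (SE 0.19, 95% interval 0.20 to 1.05, limma adjusted p = 0.727). This is a fold of 1.54 with an interval from 1.15 to 2.07. All 3 deleted-receptor arrays lay above all 3 empty-vector arrays. The difference did not pass the threshold, and 0 of the 43 members were called by limma in this comparison, against 0.17% of all genes. Slc25a30 was the 1 member with an unadjusted p under 0.05, where 3.79% of all genes had one. Without the arrays numbered 3 the difference was 0.72 (adjusted p = 0.178). With the array number as a block in the fit, its SE was 0.11 and its 95% interval 0.35 to 0.90 (limma adjusted p = 0.0828). No member was called with that block, against 0.912% of all genes. At an unadjusted limma p under 0.05 that fit had 5 members, Slc25a1, Slc25a30, Slc25a32, Slc25a33 and Slc25a51, 11.6% against 9.84% of all genes.

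Set directly against each other, the deleted receptor gave 0.95 less Slc25a30 signal than the full-length receptor, a difference of -0.95 (SE 0.19, 95% interval -1.37 to -0.52). Its unadjusted p of 0.000628 ranked 8 among 18193 genes, and its limma adjusted p was 1.0. No gene on the array was called in this comparison, 0% of all genes, so 0 of 43 members were called either. At an unadjusted p under 0.05 there was 1 member, Slc25a30, against 1.52% of all genes. Without the arrays numbered 3 the difference was -1.02 (adjusted p = 0.68). With the array number as a block, its SE was 0.11 and its 95% interval -1.22 to -0.67 (limma adjusted p = 0.215). No gene was called with that block either. At an unadjusted limma p under 0.05 that fit had 4 members, Slc25a1, Slc25a12, Slc25a23 and Slc25a30, 9.3% against 4.32% of all genes. The comparisons share their arrays: the difference from empty vector with the deleted receptor, 0.63, was 39.8% of that with the full-length receptor, 1.57, on the log2 scale.

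The other probe sets of Slc25a30 read the same order of groups, with 1 exception. Probe set 1420835_at had 11.22, 11.54 and 10.66 in full-length receptor cells, 10.45, 10.57 and 9.83 in deleted-receptor cells, and 9.71, 9.91 and 9.55 in empty-vector cells. Probe set 1450018_s_at had 11.22, 11.39 and 10.42, then 10.23, 10.24 and 9.51, then 9.35, 9.45 and 9.24 in the same groups. Probe set 1425948_a_at had 9.80, 10.09 and 9.28, then 9.10, 9.30 and 8.45, then 8.33, 8.40 and 8.17. In all of these array 3 was the lowest of its group. When every single-gene probe set was tested, the rise with the full-length receptor was 1.57 (adjusted p = 0.00819) for 1420836_at, 1.66 (adjusted p = 0.0329) for 1450018_s_at, 1.42 (adjusted p = 0.0482) for 1425948_a_at and 1.42 (adjusted p = 0.0513) for 1420835_at. The difference with the deleted receptor was 38.8% to 45.8% of that with the full-length receptor over these probe sets. The remaining one, 1425949_at, averaged 4.60 with the full-length receptor, 4.78 with the deleted receptor and 4.78 with empty vector, and its difference for the full-length receptor was -0.18.

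**Figure D1:**
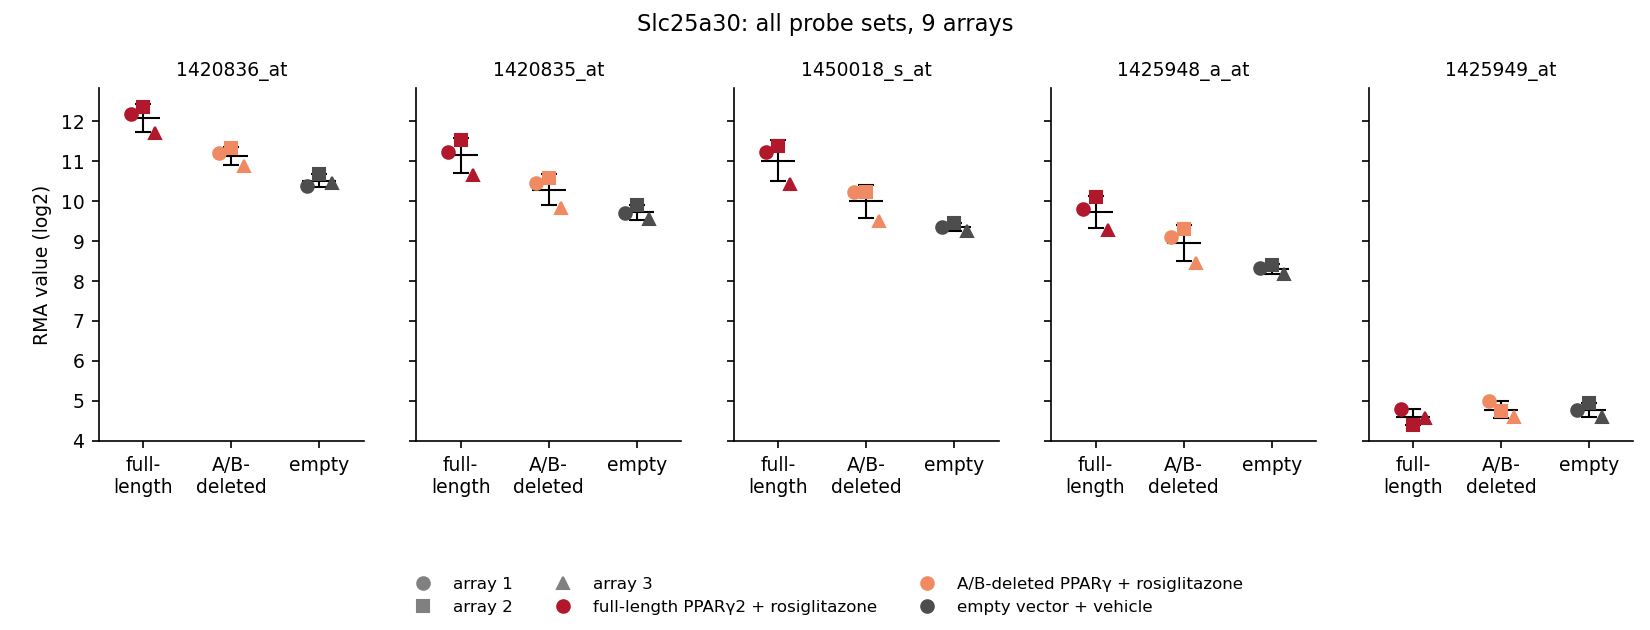
RMA values (log2, vertical axis) of the 5 probe sets of Slc25a30 on the 9 arrays, 1 panel per probe set, with groups along the horizontal axis; marker shape gives the array number, horizontal lines give means and error bars SD (n = 3). In 1420836_at the full-length receptor arrays lie between 11.70 and 12.35, the deleted-receptor arrays between 10.88 and 11.32 and the empty-vector arrays between 10.39 and 10.69, while 1425949_at stays between 4.41 and 5.01 in all groups.

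The sequences before the transcription start of the pair of members with the largest positive differences for the full-length receptor, Slc25a30 and Slc25a1, are shown so that the region a nuclear receptor could read can be seen. They are the 250 bases before the start, from the RefSeq promoter table of build GRCm38.p6, for Slc25a30 at chr14:75787038-75787287 and for Slc25a1 at chr16:17928220-17928469, both on the minus strand. Capitals mark CCAAT and GGGCGG, the CCAAT box and the GC box, read on either strand.
Slc25a30: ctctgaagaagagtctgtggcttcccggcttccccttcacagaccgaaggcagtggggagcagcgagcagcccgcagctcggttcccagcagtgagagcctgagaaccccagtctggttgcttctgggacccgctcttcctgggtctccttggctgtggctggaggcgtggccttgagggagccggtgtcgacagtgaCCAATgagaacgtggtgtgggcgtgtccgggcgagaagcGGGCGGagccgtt
Slc25a1: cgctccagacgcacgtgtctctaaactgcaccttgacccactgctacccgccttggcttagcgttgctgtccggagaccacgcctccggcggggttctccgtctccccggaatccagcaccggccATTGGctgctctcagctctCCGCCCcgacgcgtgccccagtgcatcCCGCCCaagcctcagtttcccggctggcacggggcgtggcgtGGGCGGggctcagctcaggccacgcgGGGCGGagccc

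The Slc25a30 window held 1 CCAAT box and 1 GC box, and the Slc25a1 window held 1 CCAAT box and 4 GC boxes. Of 32851 windows of the same length in the table, 33.8% held CCAAT and 32.7% held GGGCGG. Of the 42 windows of carrier genes, 20 held CCAAT and 31 held GGGCGG, so these boxes were not particular to Slc25a30 and Slc25a1. PPARγ binds DNA with the retinoid X receptor at direct repeats of the half-site AGGTCA spaced by a single base. The exact repeat AGGTCANAGGTCA was found in 0.0335% of all windows, and the looser AGGNCANAGGNCA, which includes it, in 0.338%. Neither was found on either strand in the 42 windows of the 33 carrier genes in the table. At such low shares 42 windows are too few for this absence to be read as a result. The half-site alone was in the windows of 4 of those genes, Slc25a34, Slc25a39, Slc25a45 and Slc25a47, and in 14% of all windows. These are matches of letters in short windows and show no binding.

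The carriers of carboxylates numbered 3. Slc25a1, the citrate carrier, read 10.40, 10.28 and 10.69 in full-length receptor cells, 10.26, 10.05 and 10.36 in deleted-receptor cells and 9.99, 9.69 and 10.18 in empty-vector cells. The full-length receptor arrays lay above all empty-vector arrays, and the deleted-receptor arrays overlapped both groups. At each array number the full-length receptor array was above the empty-vector array, which must follow where the groups do not overlap. Its difference was 0.50 (SE 0.16, 95% interval 0.13 to 0.87, limma adjusted p = 0.423) for the full-length receptor and 0.27 (SE 0.16, adjusted p = 1.0) for the deleted receptor, each against empty vector. Whether Slc25a1 was called for the full-length receptor depended on the fit, as described under the dependence on processing. The dicarboxylate carrier Slc25a10 differed by -0.01 and the oxoglutarate carrier Slc25a11, part of the malate-aspartate shuttle, by -0.10 for the full-length receptor.

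The uncoupling-protein-like members apart from Slc25a30 were not called. Slc25a14, a brain uncoupling-protein-like carrier, read 7.79, 7.50 and 7.67 in full-length receptor cells, 7.82, 7.57 and 7.82 in deleted-receptor cells and 7.90, 8.01 and 7.86 in empty-vector cells. Every array of both receptor groups lay below every empty-vector array, by small margins. The differences were -0.27 (adjusted p = 0.851) for the full-length receptor and -0.19 (adjusted p = 1.0) for the deleted receptor. Slc25a27, another such carrier best known from brain, read 7.06, 6.66 and 6.73, then 7.27, 6.96 and 6.83, then 7.19, 7.56 and 6.94 in those groups. The groups of Slc25a27 overlapped, and its differences were -0.41 (SE 0.19, adjusted p = 0.847) and -0.21 (adjusted p = 1.0). Its other probe sets, 1454230_a_at, 1431201_at and 1458119_at, gave -0.08, -0.04 and 0.01 for the full-length receptor.

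The carriers of nucleotides, phosphate and cofactors formed the largest class, with 16 members and 0 called in any comparison. Over all genes 0.654% were called for the full-length receptor, 0.17% for the deleted receptor and 0% between the receptors, so 0 calls do not set this class apart. Slc25a5, the ADP/ATP translocator of proliferating and many other cells, read 13.30, 13.25 and 13.34 in full-length receptor cells, 13.27, 13.23 and 13.40 in deleted-receptor cells and 13.21, 13.21 and 13.31 in empty-vector cells. It averaged 13.29 ± 0.05 in full-length receptor cells, 13.30 ± 0.09 in deleted-receptor cells and 13.24 ± 0.06 with empty vector (SD, n = 3 each). Its difference for the full-length receptor was 0.05, with a 95% interval from -0.18 to 0.28. Slc25a4, the translocator of heart and muscle, read 12.67, 12.65 and 13.04, then 12.62, 12.78 and 13.01, then 12.68, 12.89 and 12.99 in the same groups, with array 3 the highest of each, and had a difference of -0.06 for the full-length receptor with an interval from -0.41 to 0.28. The phosphate carrier Slc25a3 differed by -0.02, with an interval from -0.28 to 0.25. These intervals lie inside a change of 0.5 either way. Slc25a31, the translocator of germ cells, read 4.75, 4.75 and 4.06, then 3.71, 4.63 and 4.36, then 4.55, 4.60 and 4.0 in those groups, below every array median.

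Within that class the highest difference from empty vector was that of an NAD carrier and the lowest that of a pyrimidine nucleotide carrier, for both receptors. Slc25a51, the NAD carrier, read 9.89, 9.84 and 10.15 in full-length receptor cells, 9.74, 9.91 and 10.17 in deleted-receptor cells and 9.35, 9.50 and 9.91 in empty-vector cells. At each array number both receptor arrays exceeded the empty-vector array, but the groups overlapped, since the empty-vector array numbered 3 read 9.91. The differences were 0.37 (adjusted p = 0.873) and 0.35 (adjusted p = 1.0), and its 3 probe sets ran from 0.24 to 0.37 and from 0.19 to 0.35. Slc25a33, the pyrimidine nucleotide carrier, went the other way, with 8.11, 8.06 and 8.55, then 8.14, 8.07 and 8.60, then 8.55, 8.29 and 8.89, and differences of -0.34 (adjusted p = 1.0) and -0.31 (adjusted p = 1.0). Slc25a17, a peroxisomal carrier of nucleotide cofactors, read 9.22, 9.32 and 8.67 in full-length receptor cells, 9.31, 9.42 and 8.79 in deleted-receptor cells and 9.58, 9.85 and 8.78 in empty-vector cells, with differences of -0.33 and -0.23. Its array 3 was the lowest of each group, and the groups overlapped.

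Slc25a16, a relative of coenzyme A carriers, read 9.06, 8.85 and 8.48 in full-length receptor cells, 9.22, 9.20 and 8.56 in deleted-receptor cells and 9.14, 8.58 and 8.49 in empty-vector cells. Its differences were 0.06 for the full-length and 0.25 for the deleted receptor, and the groups overlapped. The ATP-Mg/phosphate carriers exchange adenine nucleotides for phosphate and set the matrix nucleotide pool. Slc25a41, one of them, read 5.44, 5.28 and 6.04, then 5.34, 5.23 and 5.22, then 5.73, 5.57 and 5.13 in the same groups, with differences of 0.11 and -0.21. Slc25a23, another, read 5.34, 4.93 and 5.44, then 4.67, 4.72 and 5.14, then 5.0, 4.63 and 5.06, with differences of 0.34 and -0.06. None of these was called. The deleted receptor was below the full-length receptor by 0.40 in Slc25a23, a difference of -0.40 with a 95% interval from -0.82 to 0.03. With the array number as a block that interval was -0.66 to -0.13 (limma adjusted p = 0.888). Mean levels were 4.84 ± 0.26 with the deleted and 5.24 ± 0.27 with the full-length receptor, below every array median.

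**Figure D2:**
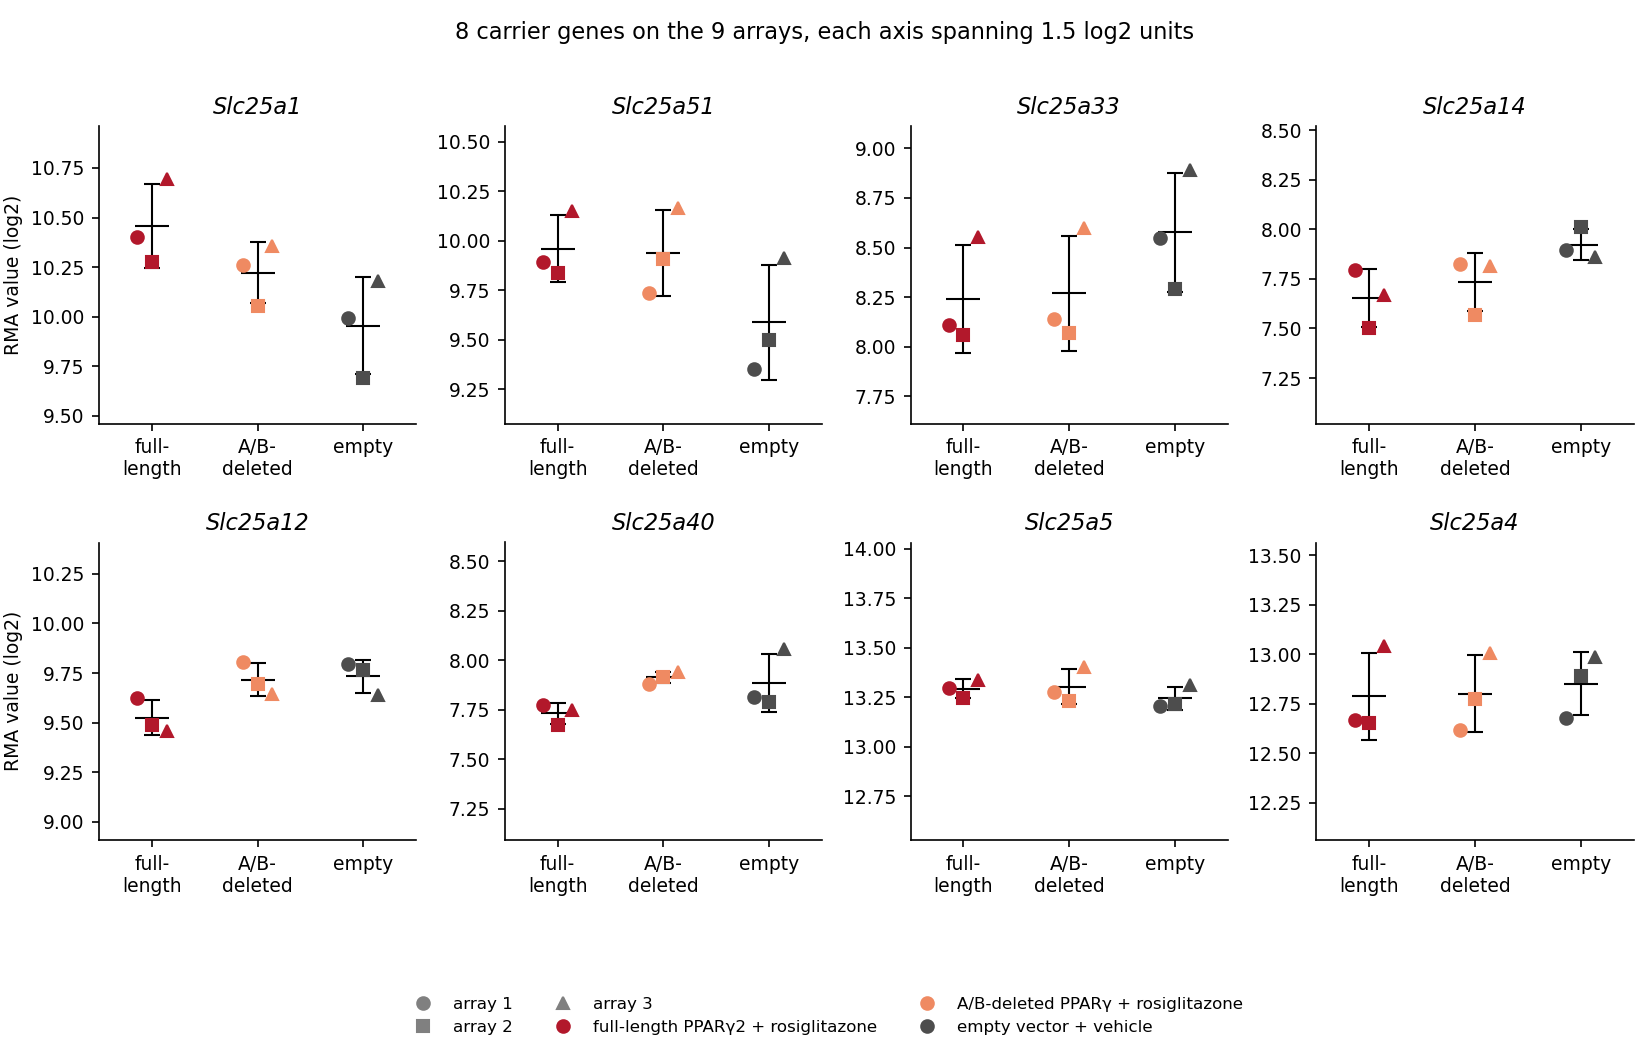
RMA values (log2, vertical axis, each panel spanning 1.5 units) of 8 carrier genes on the 9 arrays; marker shape gives the array number, horizontal lines give means and error bars SD (n = 3). In Slc25a1 the full-length receptor arrays (10.28 to 10.69) lie above the empty-vector arrays (9.69 to 10.18), in Slc25a14 both receptor groups lie below empty vector, and in Slc25a5 and Slc25a4 the groups overlap.

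Amino acid carriers numbered 9, with 0 called. Over all genes the called shares were 0.654% (full-length receptor), 0.17% (deleted receptor) and 0% (between the receptors). Slc25a12, an aspartate-glutamate carrier of the malate-aspartate shuttle, read 9.63, 9.49 and 9.46 in full-length receptor cells, 9.81, 9.70 and 9.64 in deleted-receptor cells and 9.80, 9.77 and 9.64 in empty-vector cells. The full-length receptor arrays were the lowest of the 3 groups, without overlap. Its difference was -0.21 (SE 0.11, adjusted p = 0.944) for the full-length receptor against empty vector and 0.19 (SE 0.11, adjusted p = 1.0) for the deleted against the full-length receptor. Slc25a13, its relative in liver and other tissues, read 7.73, 7.52 and 8.31 in full-length receptor cells, 7.59, 7.70 and 8.65 in deleted-receptor cells and 7.88, 7.91 and 8.81 in empty-vector cells. At each array number the empty-vector array was the highest, and the groups overlapped. The difference was -0.35 for the full-length receptor, with a 95% interval from -1.13 to 0.43, and -0.22 for the deleted receptor. The 7 other amino acid carriers lay between -0.21 (Slc25a38, the glycine carrier) and 0.22 (Slc25a22, a glutamate carrier) for the full-length receptor.

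The iron and glutathione carriers numbered 4, with 0 called, where 0.654% (full-length receptor), 0.17% (deleted receptor) and 0% (between the receptors) of all genes were. Slc25a40, a glutathione carrier, read 7.77, 7.67 and 7.75 in full-length receptor cells, 7.88, 7.92 and 7.94 in deleted-receptor cells and 7.81, 7.79 and 8.06 in empty-vector cells. The full-length receptor arrays lay below all others, with differences of -0.15 (adjusted p = 1.0) against empty vector and 0.18 (adjusted p = 1.0) for the deleted against the full-length receptor. The mitoferrins, which import iron, differed by -0.03 (Slc25a28) and -0.03 (Slc25a37), and the other glutathione carrier Slc25a39 by 0.07. The last 8 members, which include Slc25a46, an outer membrane protein of mitochondrial dynamics, and Slc25a35, a carrier with no substrate assigned here, lay between -0.12 and 0.18 for the full-length receptor and between -0.29 (Slc25a35) and 0.23 for the deleted receptor. Slc25a35 itself read 6.43, 6.61 and 7.18, then 6.72, 6.60 and 6.35, then 7.15, 6.84 and 6.55 in those groups, which overlapped.

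Counted over the whole family, 22 of 43 differences were above 0 with the full-length receptor, 51.2%, against 50.9% of all genes. The median difference was 0.02 for the family and 0.00 for all genes, and the median size was 0.10 for both. With the deleted receptor the medians were -0.00 and -0.03, and 21 members were above 0, 48.8% against 42.2% of all genes. Between the receptors 22 members were above 0, 51.2% against 46% of all genes. Groups did not overlap in 5 members for the full-length receptor against empty vector, Slc25a30 and Slc25a1 higher and Slc25a12, Slc25a14 and Slc25a40 lower, 11.6% against 9.38% of all genes. By direction these were 2 members higher, against 4.52% of all genes, and 3 lower, against 4.86%. For the deleted receptor against empty vector they did not overlap in Slc25a30, Slc25a14 and the folate and FAD carrier Slc25a32, 3 members, 6.98% against 7.89%. Of these 2 were higher, against 3.86% of all genes, and Slc25a14 was lower, against 4.03%. For the deleted against the full-length receptor they did not overlap in 4 members, Slc25a30 lower and Slc25a12, Slc25a40 and Slc25a32 higher, 9.3% against 5.17%. The 3 higher members compare with 2.02% of all genes and the 1 lower member with 3.14%. Slc25a32, named after its values were seen, read 9.39, 9.31 and 9.19 in full-length receptor cells, 9.45, 9.43 and 9.39 in deleted-receptor cells and 9.34, 9.12 and 9.14 in empty-vector cells.

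Taken gene by gene, the 95% intervals bounded the difference in signal of the probe set used. The counts include the 6 members below the lowest array median, where a narrow interval need not bound a change in RNA. For the full-length receptor against empty vector, the 95% interval of the difference lay within -1 and 1 in 41 of 43 members, the exceptions being Slc25a30 and Slc25a13, and within -0.5 and 0.5 in 25. For the deleted receptor these counts were 42 and 27, and between the receptors 42 and 28. These shares were close to those of all genes: 93.6% and 56.1% for the full-length receptor, 93.9% and 57.2% for the deleted receptor and 94.5% and 58.8% between the receptors. The median SE of a difference was 0.15 over the family and 0.16 over all genes.

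**Figure D3:**
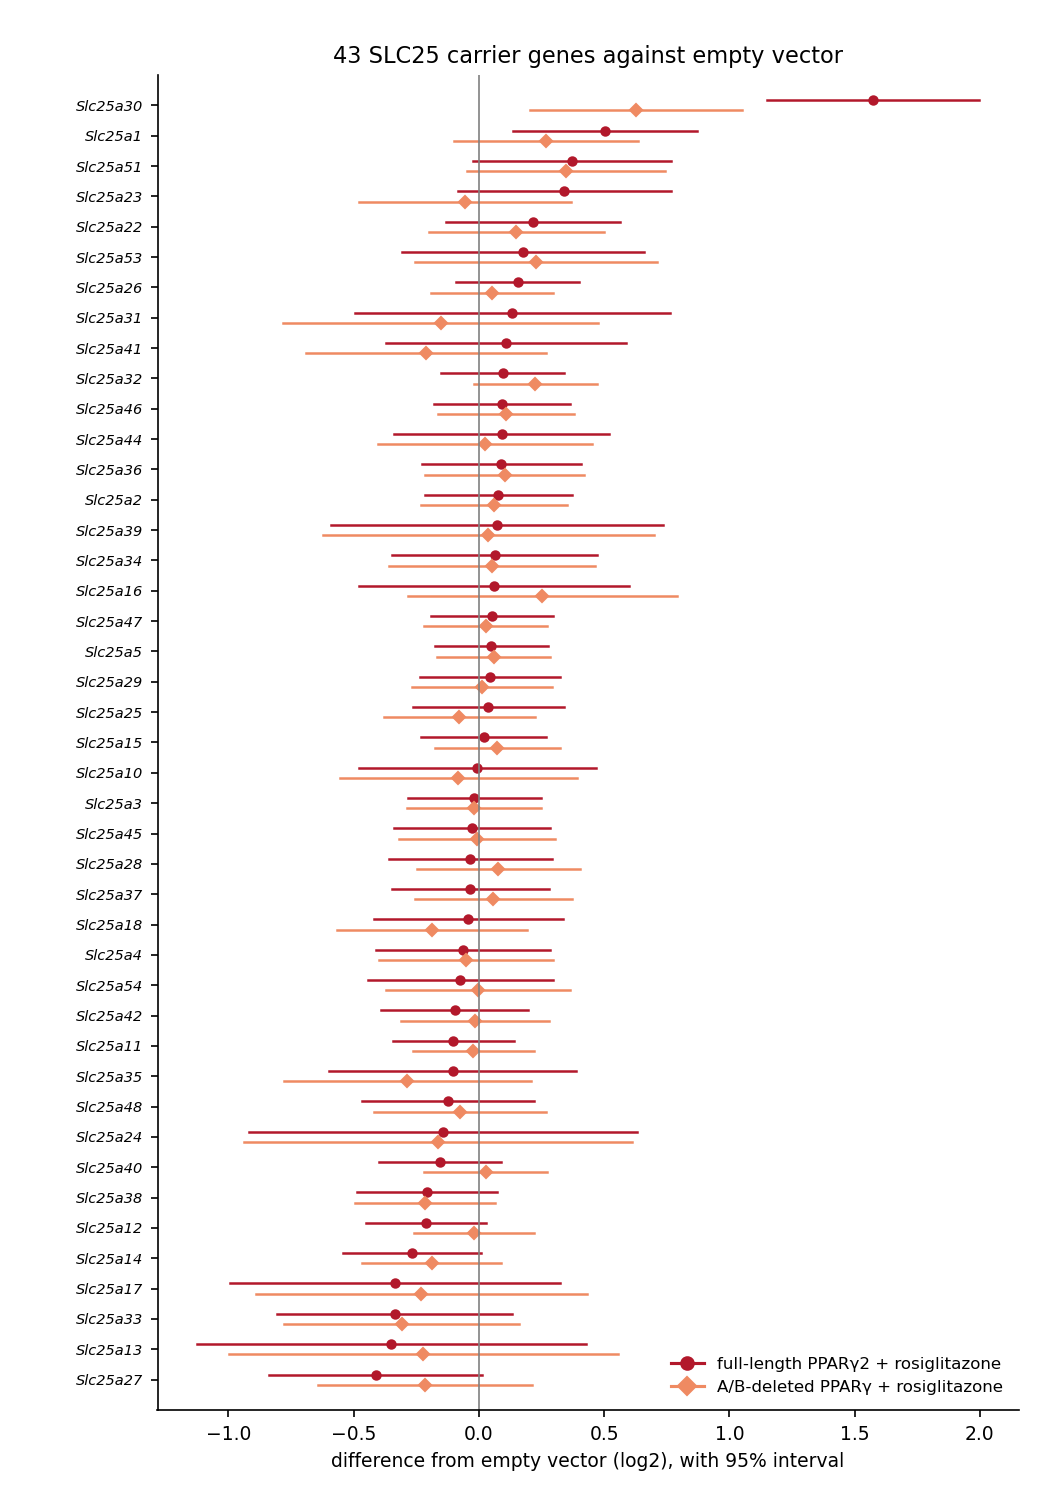
Differences from empty vector (log2, horizontal axis) of the 43 carrier genes, ordered by the full-length receptor; circles show the full-length and diamonds the deleted receptor, and lines show 95% intervals from limma. Slc25a30 stands at 1.57 and 0.63, and the other 42 genes lie between -0.41 and 0.50 for the full-length receptor and between -0.31 and 0.35 for the deleted receptor.

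Many carrier genes differed more between array numbers than between groups. Of the 43 members 15 had more of their sum of squares between groups than between array numbers, 34.9% against 34.5% of all genes. In Slc25a30 the groups held 90.8% and the array numbers 7.18%. In Slc25a24, an ATP-Mg/phosphate carrier, the groups held 2.99% and the array numbers 96.6%: it read 10.94, 10.66 and 11.64 in full-length receptor cells, 10.96, 10.58 and 11.64 in deleted-receptor cells and 11.09, 10.83 and 11.76 in empty-vector cells. Array 3 was the highest in every group in 13 members, 30.2% against 14.9% of all genes, and the lowest in every group in 5, 11.6% against 14.2%. Among the 13, the mean of the arrays numbered 3 minus that of the others was 0.87 for Slc25a13, 0.84 for Slc25a24, 0.73 for Slc25a39 and 0.50 for Slc25a10. Among the 5 it was -0.70 for Slc25a17, -0.50 for Slc25a16 and -0.41 for Slc25a44, the branched-chain amino acid carrier. These are descriptions, since the arrays numbered 3 were set apart on these data, and the part that their low 18S signal has in them was not tested.

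**Figure D4:**
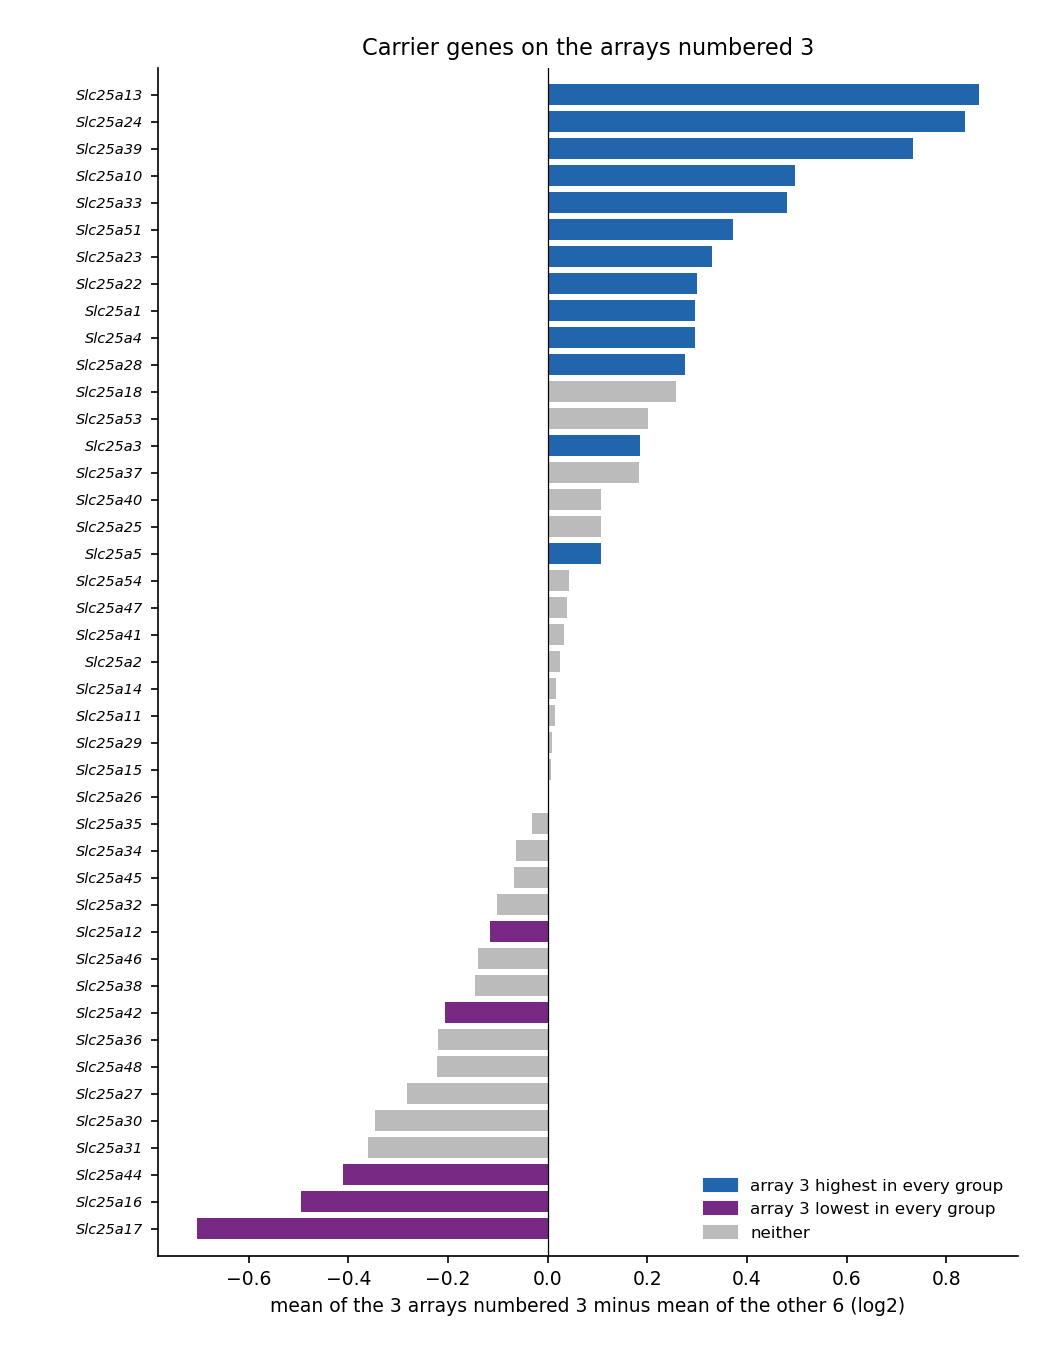
Mean of the 3 arrays numbered 3 minus mean of the other 6 arrays (log2, horizontal axis) for each of the 43 carrier genes; blue bars mark genes with array 3 highest in every group, purple bars those with array 3 lowest in every group. The bars run from -0.70 for Slc25a17 to 0.87 for Slc25a13.

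Probe sets of the same gene often differed by more than the family's median size of difference, 0.10 for the full-length receptor, and at times in sign. Over the 22 genes with several, the largest range of the full-length receptor difference was that of Slc25a30, from -0.18 to 1.66. Next came Slc25a48, from -0.12 to 0.36, Slc25a53, from -0.28 to 0.18, and Slc25a27, from -0.41 to 0.01. In Slc25a42, a coenzyme A carrier, the probe set used here gave -0.10 for the full-length and -0.02 for the deleted receptor. The other, 1424790_at, gave 0.28 (limma adjusted p = 0.704 when every probe set was tested) and 0.26. On 1424790_at every array of both receptor groups lay above every empty-vector array. The 8 probe sets of Slc25a5 lay between 0.03 and 0.17.

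Slc25a20, which the family as defined here leaves out, imports acylcarnitines for oxidation. It read 8.95, 9.35 and 8.74 in full-length receptor cells, 8.70, 8.91 and 8.31 in deleted-receptor cells and 8.11, 7.90 and 7.90 in empty-vector cells, with differences of 1.04 (SE 0.19, adjusted p = 0.0518) and 0.67 (SE 0.19, adjusted p = 0.646). Without the arrays numbered 3 the full-length receptor difference was 1.15 and was called (adjusted p = 0.0379), and that of the deleted receptor was 0.80 (adjusted p = 0.215).

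Genes that work beside the carriers were looked at in 4 lists, with 42 genes that had a probe set of a single symbol. They were other genes of the carrier fold (4 genes, such as the uncoupling proteins Ucp1 and Ucp3), other mitochondrial transporters (13), the machinery that imports carriers into mitochondria (13) and enzymes of the metabolite shuttles (12). With limma 0 of 42 were called in any of the 3 comparisons. Over all genes 0.654% were called for the full-length receptor, 0.17% for the deleted receptor and 0% between the receptors. At an unadjusted p under 0.05 there were 6 for the full-length receptor, 14.3% against 6.19% of all genes, 1 for the deleted receptor, 2.38% against 3.79%, and 1 between the receptors, 2.38% against 1.52%. The list medians for the full-length receptor lay between -0.08 and 0.06. Ucp1 averaged 6.83 ± 0.21 with the full-length receptor, 6.63 ± 0.19 with the deleted receptor and 6.70 ± 0.17 with empty vector, and Mpc1, a subunit of the mitochondrial pyruvate carrier, averaged 10.14 ± 0.17, 10.20 ± 0.22 and 10.23 ± 0.14 (SD, n = 3 each).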

How the data were processed

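The deposited table gave 1 log2 value for each of 45101 probe sets on each of 9 Affymetrix arrays, made by the authors. The submitters' processing notes name RMA, the R package affy and R 2.5.0, and the chip definition is not given in the sources used here. The base of the logarithm was read from the values: raised to base 2, at least 99.86% of those on each array were whole hundredths. Arrays have no read depth, and their number limits the precision. Genes were named from the platform annotation. The 64 controls, the 9160 unnamed probe sets and the 932 that carry more than 1 symbol were not tested. All 43 members matched the RefSeq table of GRCm38.p6 by Entrez identifier.

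Values were used as deposited. Differences were tested with limma 3.58.1 in R 4.3.3 (lmFit, eBayes, two-sided), in 1 fit over 9 arrays with 3 group means, with 6 residual and 3.374 prior degrees of freedom, and p-values were adjusted by Benjamini-Hochberg over 18193 genes. Genes were called at an adjusted p under 0.05. The fit was checked on simulated data. Tables and figures used Python 3.11.15, pandas 2.3.3, numpy 2.4.6 and matplotlib 3.10.9.

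Members, lists, roles and tests were chosen with earlier results of these data known. Values are given for members called with or without a replicate block, for the 4 largest and 4 smallest differences of each comparison, for Slc25a30 with all its probe sets, and for the uncoupling-protein-like and ADP/ATP carriers. Equal replicate numbers were checked as pairs by correlating, over genes, how far same-numbered arrays lay from their own group's mean. The correlation was 0.520 to 0.708 for the deleted receptor and empty vector, and 0.297 to 0.531 for both receptors, so these arrays were taken as paired. The fit without the block was kept for the values above unless stated, so their SEs include the spread between array numbers. For Slc25a30 the blocked values of these comparisons are given beside them, and for Slc25a23, Slc25a33 and Slc25a51 those of 1 comparison each. The alternatives were a replicate block, each array left out, the arrays numbered 3 left out, the compared arrays alone, all probe sets of a gene averaged, median subtraction, quantile normalization, a filter on dim probe sets, a variance trend and every probe set tested.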

Additional observations from a re-analysis of the deposited data

How the results depend on the processing

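The rise of Slc25a30 with the full-length receptor was called under each of the 18 alternatives, from 1.18 to 1.77 with adjusted p from 0.00246 to 0.0414, and without 1 array from 1.44 to 1.77. Its difference for the deleted receptor against empty vector ran from 0.50 to 0.75 (adjusted p from 0.0828 to 1.0) and for the deleted against the full-length receptor from -1.14 to -0.68 (adjusted p from 0.215 to 1.0), called under 0 of 18 alternatives each. With the replicate number as a block 2 members were called for the full-length receptor instead of 1, since Slc25a1 (0.50) passed with an adjusted p of 0.0218, where 3.63% of all genes were called. These numbers were not taken as pairs of full-length and empty-vector arrays, since the correlation was -0.121 for number 1, against 0.631 and 0.255 for the others. They were taken as pairs in the other comparisons, and the block is the same in all of them, so this choice is not settled. Here 4 of 6 arrays correlated best with their own number, and whether the numbers mark shared experiments is not known. Over all genes that block gave 661 calls against 119 without it, and 166 against 31 for the deleted receptor against empty vector. The block changed no other call of a member, and of the 42 genes in the lists it added Timm10b (0.38, adjusted p = 0.0492). It also added Slc25a20, outside the family as defined here (1.04, adjusted p = 0.0148). The lowest counts over all genes were 57 without full-length replicate 2 and 17 without empty-vector replicate 2, and without full-length replicate 3 there was 1 call between the receptors. An F test over the 3 groups called 1 member, Slc25a30 (adjusted p = 0.0186), where 0.418% of all genes were called, and 0 members when all probe sets of a gene were averaged. Leaving out 1 array gave 0 to 1, with 0 without full-length replicate 1 or 2, any empty-vector replicate or deleted-receptor replicate 1. Of 884 uncalled differences of the 17 named members under the alternatives, 45 changed sign and 2 moved by more than the larger SD of the groups. The filter on dim probe sets kept 32 of 43 members. The number of arrays limits what can be called.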

Other observations

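Among the genes that import carriers, the small TIM proteins escort carriers through the space between the mitochondrial membranes. Of their 6 genes on the array limma called 0 for the full-length receptor, for the deleted receptor and between the receptors. Over all genes 0.654%, 0.17% and 0% were called. For the full-length receptor 3 of the 6 had an unadjusted p under 0.05, where 6.19% of all genes had one. This group was picked after its values were seen. Timm10b averaged 11.01 ± 0.06 with the full-length receptor, 10.87 ± 0.04 with the deleted receptor and 10.63 ± 0.05 with empty vector (SD, n = 3 each), a difference of 0.38 for the full-length receptor (limma adjusted p = 0.2). Its difference for the deleted receptor was 0.24 (adjusted p = 1.0). Timm9 differed by 0.40 for the full-length receptor (adjusted p = 0.619) and by 0.33 for the deleted receptor (adjusted p = 1.0). Timm10 differed by 0.35 (adjusted p = 0.651) and 0.30 (adjusted p = 1.0). The others lay near 0 for the full-length receptor, with 0.04 for Timm8a1, -0.07 for Timm8b and -0.00 for Timm13. Mcu, the pore of the mitochondrial calcium uniporter, averaged 9.33 ± 0.21 with the full-length receptor, 8.86 ± 0.13 with the deleted receptor and 8.80 ± 0.14 with empty vector, a difference of 0.53 for the full-length receptor (adjusted p = 0.221).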
